A study of Homo sapiens with 54 samples.

Results

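The expression of 10 genes, the ADP-ribosyltransferases PARP14, PARP9, PARP10, PARP12, PARP1, PARP2, PARP4, PARP8, and PARP11 and the ubiquitin ligase DTX3L, was followed in lymphoma cells that carried STAT6 WT or STAT6 MUT. The genes were chosen by name from the 31835 genes listed in the count table, and each was matched through its Ensembl identifier. Members of the PARP family take ADP-ribose from NAD+ and attach it to proteins, either as chains (PARP1 and PARP2, which act at DNA breaks) or as single units (most of the others). PARP14 carries macrodomains, which bind ADP-ribose, and acts as a co-activator of STAT6 in IL-4 signaling. PARP9, also a macrodomain protein, forms a complex with DTX3L, and several family members (PARP9, PARP10, PARP12, PARP14, and the antiviral protein ZC3HAV1, also named PARP13) are known as genes induced by interferon.

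The cells were OCI-Ly1, an established human B cell lymphoma line whose own STAT6 carries a variant in the DNA-binding domain. They were stably transduced with a vector in which a CMV promoter drove Flag-tagged STAT6, either WT or with D419G, D419N, or N421K, 3 substitutions in the DNA-binding domain. All cells received IL-4 at 10 ng/ml for 20 min, were washed, and were lysed 2, 4, or 8 h later (10000 cells per well). Each of the 3 time points had 9 STAT6 WT and 9 STAT6 MUT libraries (3 of each mutant line), 54 in all. No library of unstimulated cells or of cells with an empty vector was analysed here, so that every value is one after IL-4. The labels call the replicates biological but do not give how often each construct was transduced, so that genotype and transduced population cannot be told apart. The 2, 4, and 8 h libraries lay in different rows of the plate, so that time point and plate row cannot be told apart either.

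Transcripts were counted at their 3′ ends with prime-seq, a bulk protocol in which a unique molecular identifier (UMI) marks each molecule before amplification. Totals ran from 161518 to 2978715 UMIs per library (median 885258.5), and 8 libraries (6 of STAT6 MUT, 2 of STAT6 WT) lay under 0.5 of the median. Levels are given as CPM, which are counts scaled to a common library total, after TMM scaling. All 7 B cell markers of the list were detected in both genotypes, with a summed level of 2628 to 3452 CPM in STAT6 WT and 2085 to 3408 CPM in STAT6 MUT. All 4 germinal center markers were detected too (482 to 888 CPM and 436 to 1178 CPM). Of 4 myeloid markers, LYZ and CD14 summed to at most 2.14 CPM in any library, and T cell markers were not analysed here. In bulk RNA, fewer cells that express a gene and less RNA per cell cannot be told apart.

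PARP14 (ENSG00000173193), PARP9 (ENSG00000138496), and DTX3L (ENSG00000163840) are neighbors on chromosome 3 (GENCODE 44, GRCh38). PARP14 is annotated on the plus strand at chr3:122680839-122730840. PARP9 (chr3:122527924-122564577, minus strand) and DTX3L (chr3:122564338-122575203, plus strand) lie head to head and overlap over 240 bases at their 5′ ends, while their 3′ ends, where UMIs are counted, lie 47.3 kb apart. The start of DTX3L lies 116.5 kb before that of PARP14. PARP15, a further family member, lies between DTX3L and PARP14 and starts 2.42 kb behind the end of DTX3L. The other members are spread over the genome, PARP12 on chromosome 7, PARP10 on 8, PARP1 on 1, PARP2 on 14, PARP4 on 13, PARP8 on 5, and PARP11 on 12.

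The promoters are shown because PARP14, PARP9, and DTX3L moved together in the comparisons that follow. The search covered 3 motifs on both strands of the RefSeq promoters (GRCh38.p14), windows of 250 bases before and 50 bases after a transcript start. The N4 palindrome, TTC and GAA with any 4 bases between them, is known to be bound by STAT6. The N3 palindrome, with any 3 bases between TTC and GAA, is bound by STAT dimers (GAS palindrome). The core of the interferon-stimulated response element, GAAA repeated after any 2 bases (ISRE core), is bound by IRF factors. Of the 10 members, 8 had at least 1 window (11 windows in all), and PARP10 and PARP4 had none. The 250 bases before the start of PARP14 (chr3:122680589-122680838, plus strand, GRCh38.p14) hold, in capitals, 1 GAS palindrome and 1 ISRE core that lie 2 bases apart.
PARP14: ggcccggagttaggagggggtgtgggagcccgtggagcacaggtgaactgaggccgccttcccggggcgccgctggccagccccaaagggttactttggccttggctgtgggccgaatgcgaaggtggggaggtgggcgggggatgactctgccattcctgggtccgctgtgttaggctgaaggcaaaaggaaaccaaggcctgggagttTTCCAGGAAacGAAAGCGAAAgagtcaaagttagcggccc
The ISRE core was found in windows of PARP14, PARP9, DTX3L, and PARP12 and in none of PARP1, PARP2, PARP8, and PARP11, against 3.57% of all 35116 windows. PARP9 and DTX3L share 1 such core, which covers the start of DTX3L and lies 32 to 41 bases before the start of 1 of the 2 PARP9 windows, so that the 4 genes hold 3 sites. The sites are shown with 10 bases on either side, each on the plus strand, with the core in capitals (chr3:122680800-122680829 for PARP14, chr3:122564322-122564351 for PARP9 and DTX3L, and chr7:140062942-140062971 for PARP12).
PARP14: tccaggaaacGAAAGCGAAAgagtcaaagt
PARP9 and DTX3L: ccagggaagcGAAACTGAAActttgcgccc
PARP12: ggcgggaaacGAAACCGAAAgcggccccgg
The GAS palindrome was found in windows of PARP14 and PARP2 (7.66% of all windows), and the N4 palindrome only in that of PARP11 among the members (6.44% of all windows). A match describes letters in a window of 300 bases and does not show binding, and a missing match does not show that binding is absent. With other software, the paper predicted STAT6 sites in the PARP14 promoter. The fragment that it cloned reaches further past the start of PARP14 than the window here. The missing N4 match is thus not set against that prediction. The paper's chromatin immunoprecipitation found increased binding of STAT6 D419G at this promoter in OCI-Ly8 cells. STAT6 WT did not differ there from the empty vector. In its reporter assay with IL-4, the fragment was activated more by STAT6 D419G than by STAT6 WT.

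PARP14 was the member with the largest difference between genotypes (plot of levels by line and time point). At 2 h, its level ran from 2.23 to 9.51 CPM in STAT6 WT (median 3.77) and from 9.43 to 36.8 CPM in STAT6 MUT (median 26.2). At 4 h, it ran from 2.90 to 8.63 CPM in STAT6 WT (median 4.15) and from 10.5 to 45.6 CPM in STAT6 MUT (median 34.5). At 8 h, the ranges were 1.92 to 13.2 CPM (median 5.49) and 9.48 to 38.3 CPM (median 18.4). The genotypes did not overlap at 4 h, while 1 STAT6 MUT library at 2 h and 2 at 8 h fell below the highest STAT6 WT library. Non-overlap in this direction was seen for 0.292% of the tested genes at 4 h, 0.238% at 2 h, and 0.0756% at 8 h. Over the 27 libraries of each genotype, the mean level of PARP14 was 26.53 ± 10.996 CPM (SD) in STAT6 MUT against 5.27 ± 2.59 CPM in STAT6 WT. The number of PARP14 UMIs had a median of 5 (1 to 13) in a STAT6 WT library and of 21 (2 to 75) in a STAT6 MUT library, so that the spread includes counting error.

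**Figure D1:**
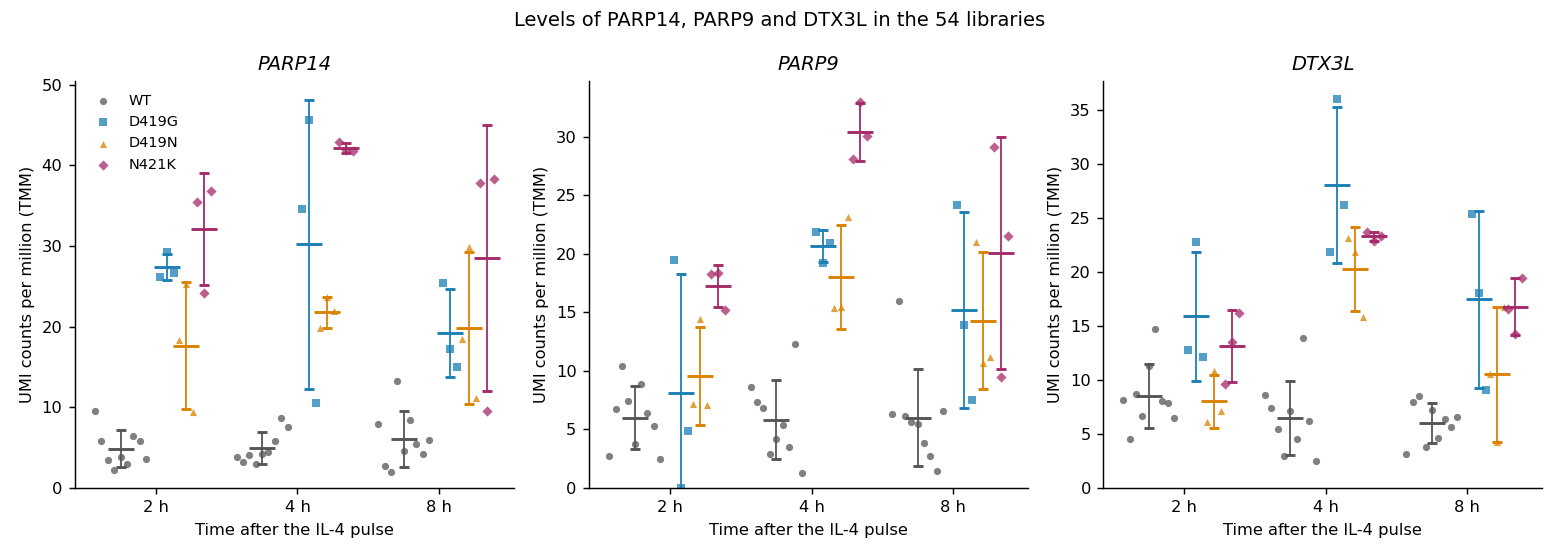
TMM-normalized CPM of PARP14, PARP9, and DTX3L (linear axes from 0) at 2, 4, and 8 h for STAT6 WT (9 libraries per time point) and the 3 mutant lines (3 each). Points are libraries, bars the mean ± SD. At 4 h, every mutant library lies above every STAT6 WT library for each of the 3 genes, and 1 D419G library has no PARP9 UMI at 2 h.

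PARP9 was higher in STAT6 MUT too, with the groups closest at 2 h. At 2 h, it ran from 2.501 to 10.4 CPM in STAT6 WT (median 6.41) and from 0 to 19.5 CPM in STAT6 MUT (median 14.4). The library without a PARP9 UMI, of D419G, was shallow (299578 UMIs), and its count of 0 allows up to 9.76 CPM. At 4 h, all STAT6 MUT libraries (15.4 to 33.0 CPM, median 21.9) lay above all STAT6 WT libraries (1.25 to 12.3 CPM, median 5.39). At 8 h, the ranges were 7.52 to 29.1 CPM (median 13.9) in STAT6 MUT and 1.41 to 15.9 CPM (median 5.66) in STAT6 WT, and 4 of 9 STAT6 MUT libraries lay above the highest STAT6 WT library, which stood apart from the other 8 (next 6.53 CPM).

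DTX3L, the ubiquitin ligase partner of PARP9, followed the same order of levels. At 2 h, the groups overlapped widely, with 4.51 to 14.7 CPM in STAT6 WT (median 8.02) and 6.09 to 22.8 CPM in STAT6 MUT (median 12.1). At 4 h, they did not overlap, with 2.495 to 13.9 CPM (median 6.16) against 15.8 to 36.0 CPM (median 23.1). At 8 h, 8 of 9 STAT6 MUT libraries (4.27 to 25.4 CPM, median 16.6) lay above all STAT6 WT libraries (3.15 to 8.45 CPM, median 6.41). A library of D419N with 2 DTX3L UMIs was the exception.

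UMI counts were tested with edgeR (quasi-likelihood) over all genes that passed its filter on low counts, with Benjamini-Hochberg adjustment and a threshold of 0.05. Across time points, the log2 fold change of STAT6 MUT over STAT6 WT was 2.49 for PARP14 (SE 0.149, adjusted p = 7.36e-25), 1.72 for PARP9 (SE 0.165, adjusted p = 2.95e-14), and 1.28 for DTX3L (SE 0.138, adjusted p = 3.86e-12). Of the 10 members, 8 passed the filter, and 4 of these were called, all higher in STAT6 MUT, against 13.4% of the 9261 genes tested (6.74% higher, 6.62% lower). Besides PARP14, PARP9, and DTX3L, the fourth was PARP12, with a log2 fold change of 0.27 (SE 0.0702, adjusted p = 0.00371), which was lost without replicate 2 (adjusted p = 0.0678) or without the N421K line (adjusted p = 0.0806). The median log2 fold change of the 8 members was 0.16, beside 0.00 over all genes tested. By p-value, PARP14 ranked 2, PARP9 ranked 19, and DTX3L ranked 32 among these genes. In STAT6 WT, PARP14, PARP9, and DTX3L had mean levels of 5.27, 5.94, and 6.98 CPM. These lay below the 8.83 CPM of PARP11, which did not pass the filter. Thus the 3 genes passed it through their level in STAT6 MUT. The count and median of the members therefore depend partly on the difference itself. The same low levels enter the counts by time point and by line. A fit without the filter also called PARP14, PARP9, DTX3L, and PARP12.

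**Figure D2:**
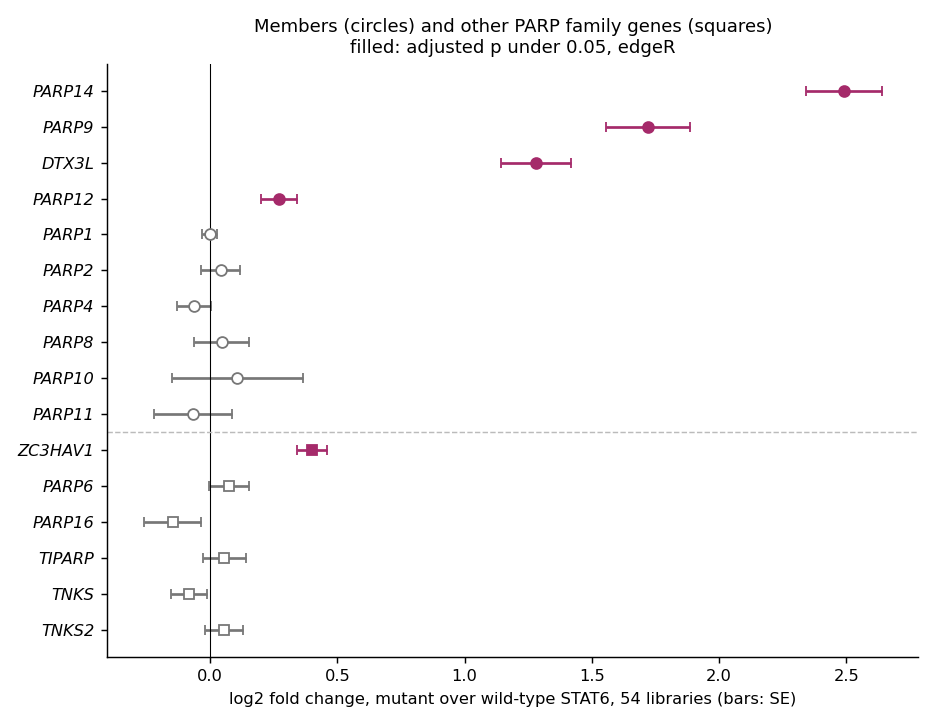
Log2 fold change of STAT6 MUT over STAT6 WT in all 54 libraries with its SE (edgeR), for the 10 members (circles) and the 6 tested genes of the remaining PARP family (squares). Filled symbols mark an adjusted p under 0.05, reached by PARP14, PARP9, DTX3L, PARP12, and ZC3HAV1, and PARP10 and PARP11 come from the fit without a filter on low counts.

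The other members stayed close between genotypes across time points. PARP1, the main enzyme that builds ADP-ribose chains at DNA breaks, ran from 615 to 830.1 CPM in STAT6 WT (median 711) and from 599.8 to 839 CPM in STAT6 MUT (median 708), with a log2 fold change of -0.0028 (SE 0.0291, adjusted p = 0.975). PARP2, its relative, differed by 0.04 (SE 0.0772, adjusted p = 0.791), with medians of 35.3 CPM in STAT6 WT and 33.2 CPM in STAT6 MUT. PARP4, a component of vault particles, differed by -0.06 (SE 0.0676, adjusted p = 0.611), with medians of 48.5 and 43.5 CPM. PARP8, an enzyme of the mono-ADP-ribosylating branch, differed by 0.04 (SE 0.107, adjusted p = 0.845), with medians of 16.8 and 17.4 CPM. PARP1 was thus the most closely measured member, at a median of 662 UMIs per STAT6 WT library.

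PARP10 and PARP11, 2 mono-ADP-ribosylating enzymes, did not pass the filter across time points. PARP11 passed it in the models by time point and by line, where it was not called in any comparison with STAT6 WT (-0.21 to 0.16). PARP10 ran from 0 to 6.16 CPM in STAT6 WT and from 0 to 10.5 CPM in STAT6 MUT, with a median of 3 and 2 UMIs per library. PARP11 ran from 0 to 17.7 CPM in STAT6 WT and from 0 to 14.2 CPM in STAT6 MUT, with a median of 8 and 7 UMIs. Across time points, a fit without that filter gave a log2 fold change of 0.11 for PARP10 (SE 0.258, adjusted p = 0.89) and -0.07 for PARP11 (SE 0.153, adjusted p = 0.874). At this depth, a difference of PARP10 as large as that of PARP12 was not detectable. The annotation places PARP10 over parts of GRINA and SPATC1 on the other strand, and since the use of strand in counting is not given in the sources used here, reads could be shared between them. PARP2, PARP4, PARP8, and PARP11 also overlap annotated lncRNAs or pseudogenes on the other strand, with the same limit.

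**Figure D3:**
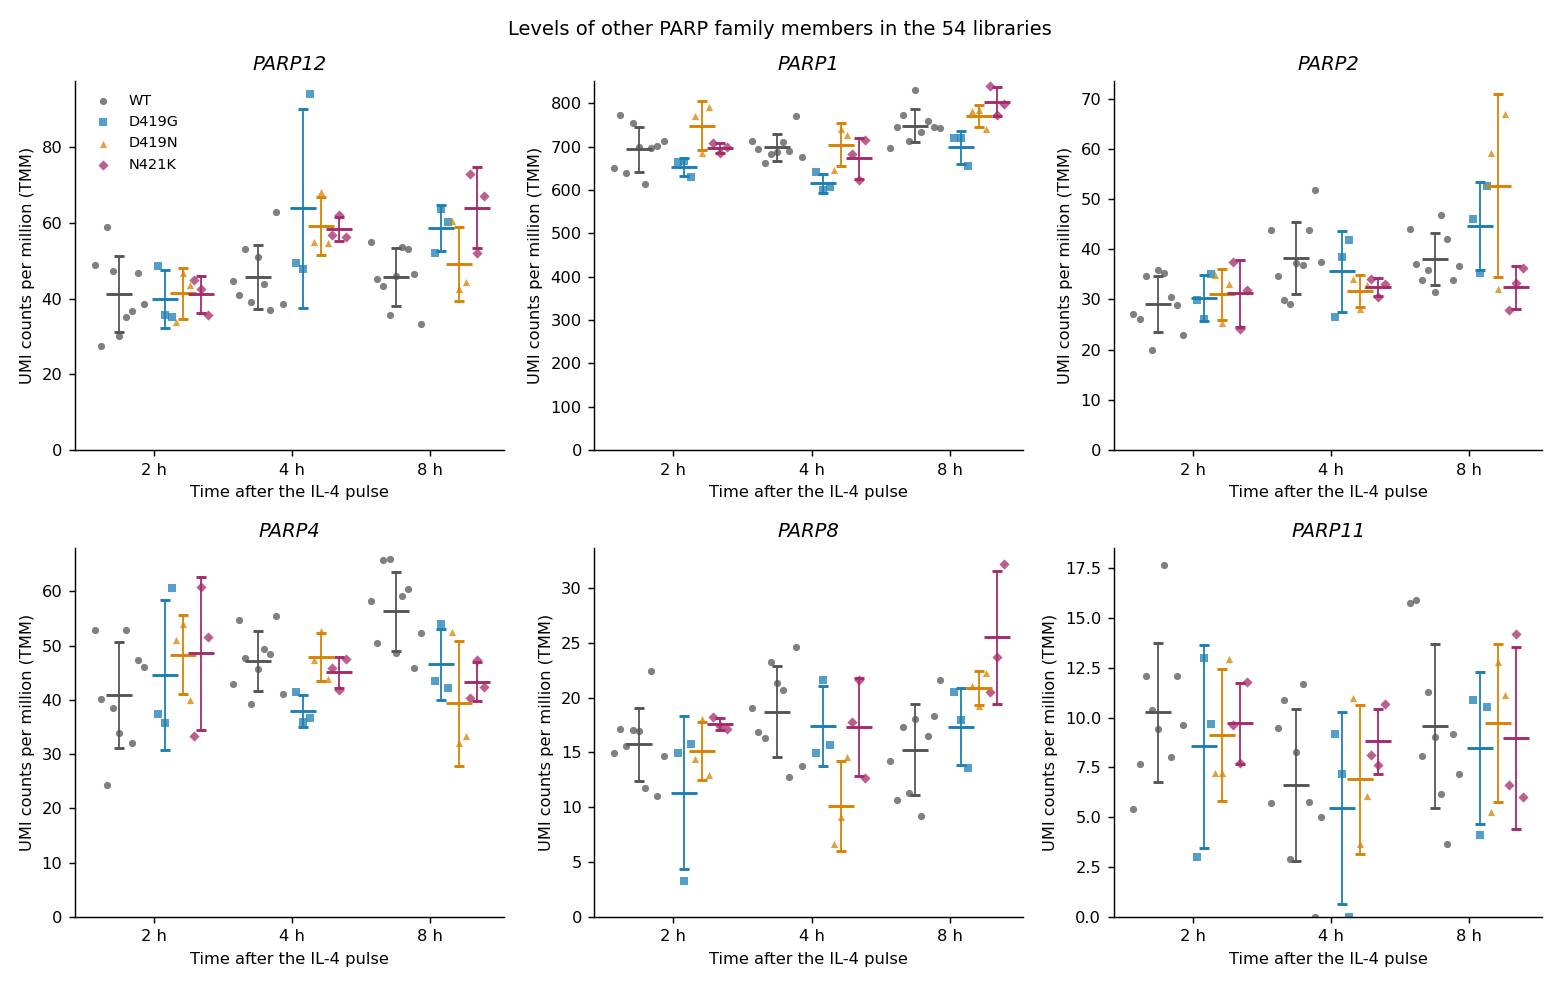
TMM-normalized CPM of PARP12, PARP1, PARP2, PARP4, PARP8, and PARP11 (linear axes from 0) at 2, 4, and 8 h, with libraries as points and the mean ± SD as bars for STAT6 WT and each mutant line. The genotypes overlap in every panel, and at 8 h 6 of 9 mutant libraries lie below all STAT6 WT libraries for PARP4.

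The difference of PARP14 was set against that of each other member as the log2 ratio of PARP14 to that member within a library. This ratio, on log2 CPM with a prior count of 2, was higher in STAT6 MUT for all 9 members in two-sided permutation tests within time points (100000 resamples, 27 libraries per genotype). The rise of PARP14 exceeded that of PARP9 by 0.74 on the log2 scale (SE 0.227, permutation p = 0.0019, adjusted over the 9 pairs p = 0.0019) and that of DTX3L by 0.90 (SE 0.199, permutation p = 5e-05, adjusted p = 5.6e-05). It exceeded those of the remaining 7 members by 1.70 (PARP12, SE 0.172) to 2.03 (PARP4, SE 0.161), each at a permutation p = 1e-05, the smallest value that the resamples can give. The prior count shrinks low counts, so that these differences are smaller than those between the fold changes of the count model. The paper had singled out PARP14 as a top gene in these same libraries. The p-values of these pairs are therefore not an independent test of its lead.

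Across the time course, the question was whether the genotypes drew apart or together after the pulse. In one model of the 6 groups of genotype and time point (9507 genes tested), PARP14 had log2 fold changes of 2.43 at 2 h (SE 0.252), 2.74 at 4 h (SE 0.262), and 2.31 at 8 h (SE 0.259), with adjusted p-values of 4.39e-12, 2.06e-13, and 8.63e-11. PARP9 differed by 1.23 at 2 h (SE 0.288, adjusted p = 0.00211), 2.01 at 4 h (SE 0.272, adjusted p = 2.35e-08), and 1.87 at 8 h (SE 0.279, adjusted p = 9.8e-07). DTX3L differed by 0.70 (SE 0.23, adjusted p = 0.0447), 1.78 (SE 0.221, adjusted p = 1.84e-09), and 1.33 (SE 0.232, adjusted p = 4.7e-05). At 2 h, 3 of 9 tested members were called (7.5% of all genes), at 4 h 3 (4.22%), and at 8 h 4 (2.6%), all of them higher in STAT6 MUT (higher genes 3.26%, 2.16%, and 1.26%). In two-sided exact permutation tests on log2 CPM (9 against 9 libraries), PARP14 had p = 8.23e-05, 4.11e-05, and 0.000165 at 2, 4, and 8 h, PARP9 had 0.185, 4.11e-05, and 0.00107, and DTX3L had 0.0597, 4.11e-05, and 0.0014, where 4.11e-05 is the smallest p the design allows. By this test, which gives shallow libraries the same weight as deep ones, PARP9 and DTX3L did not pass at 2 h. The call of DTX3L at 2 h was lost in 15 of 24 alternatives (0.47 to 0.95), DESeq2 among them (adjusted p = 0.0789), and that of PARP9 at 2 h without the N421K line (0.86, adjusted p = 0.156).

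PARP12 stood level at 2 h and higher in STAT6 MUT later. It ran from 27.5 to 58.9 CPM in STAT6 WT (median 38.6) and from 33.8 to 48.6 CPM in STAT6 MUT (median 42.5) at 2 h. At 4 h, the ranges were 37.0 to 62.8 CPM (median 44.02) and 48.0 to 94.2 CPM (median 56.3), and at 8 h 33.3 to 55.1 CPM (median 46.0) and 42.7 to 72.9 CPM (median 60.2). The log2 fold change was 0.35 at 4 h (SE 0.117, adjusted p = 0.0724) and 0.44 at 8 h (SE 0.114, adjusted p = 0.0205). The call at 8 h was lost without replicate 1, 3, or 9 or without the N421K line (0.33 to 0.44, adjusted p 0.0506 to 0.247), and the difference at 4 h passed without replicate 8 (adjusted p = 0.0288). PARP8 differed by -0.39 at 4 h (SE 0.185, adjusted p = 0.292) and by 0.43 at 8 h (SE 0.169, adjusted p = 0.176). PARP2 differed by 0.25 at 2 h (SE 0.131, adjusted p = 0.264) and by -0.25 at 4 h (SE 0.132, adjusted p = 0.361). These values of PARP8 and PARP2 did not pass adjustment, and their opposite signs offset each other in the fit across time points.

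PARP4 moved the other way at 8 h. Its level there ran from 45.9 to 66.0 CPM in STAT6 WT (median 58.3) and from 32.0 to 53.995 CPM in STAT6 MUT (median 42.3), a log2 fold change of -0.35 (SE 0.11, adjusted p = 0.0682) that did not pass adjustment over all genes. From 2 to 8 h, PARP4 rose by 0.44 in STAT6 WT (SE 0.102, adjusted p = 0.000565, 27.6% of all genes called) and changed by -0.11 in STAT6 MUT (SE 0.115, adjusted p = 0.514). The difference between these courses, -0.54 (SE 0.154, adjusted p = 0.049), was called, the only such call among the 9 members tested (1.38% of all genes). It rests on a p just under the threshold and was lost in 19 of 22 alternatives (-0.70 to -0.35), DESeq2 among them (adjusted p = 0.0609).

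A joint test of whether the difference between genotypes varied over the 3 time points called 0 of 9 members (0.957% of all genes), with adjusted p-values of 0.879 for PARP14, 0.62 for PARP9, 0.187 for DTX3L, 0.324 for PARP12, and 0.124 for PARP4. By unadjusted p under 0.05, edgeR gave 5 of 9 members in this test (DTX3L, PARP12, PARP2, PARP4, and PARP8). The 0.957% is not the share for this threshold, which many more genes pass. PARP12, with the largest p of these 5, ranked 757 among 9507 genes. DESeq2 and limma-voom called 0 members after adjustment too. Within STAT6 WT, PARP14, PARP9, and DTX3L did not pass a joint test of the time points (adjusted p 0.863 to 0.947), while PARP2 and PARP4 did (2 of 9 members, 26.2% of all genes). Within STAT6 MUT, 5 of 9 members passed (31.6% of all genes), which were PARP9, DTX3L, PARP12, PARP1, and PARP8, and 3 passed without replicate 1 or without replicate 3. From 2 to 4 h in STAT6 MUT, DTX3L rose by 0.97 (SE 0.195, adjusted p = 0.00017), PARP9 by 0.89 (SE 0.228, adjusted p = 0.00491), and PARP12 by 0.54 (SE 0.119, adjusted p = 0.000722), against 8.9% of all genes called (5.01% higher). That of PARP9 was lost without replicate 3 (0.68, adjusted p = 0.162). PARP14 changed by 0.34 over the same step (SE 0.183, adjusted p = 0.256). The gain of DTX3L from 2 to 4 h exceeded that in STAT6 WT by 1.08 (SE 0.33), which did not pass adjustment over all genes (adjusted p = 0.168, 0.421% of genes called).

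**Figure D4:**
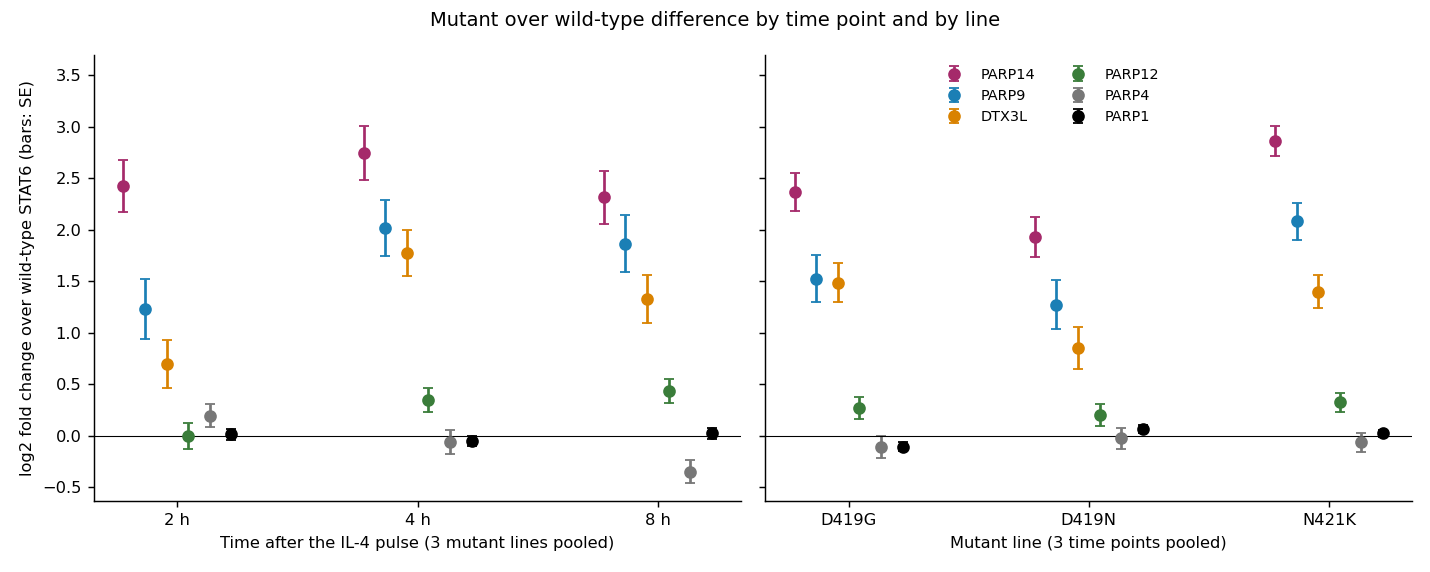
Log2 fold change over STAT6 WT with its SE (edgeR) for PARP14, PARP9, DTX3L, PARP12, PARP4, and PARP1, by time point with the 3 mutant lines pooled (left) and by mutant line with the time points pooled (right). PARP14 lies between 1.93 and 2.86 throughout, PARP9 and DTX3L are lowest at 2 h and in D419N, and PARP1 lies between -0.10 and 0.06.

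Each mutant line was compared with STAT6 WT in a further model, with terms for time point and for line (9706 genes tested). PARP14 was at 19.7 ± 6.49 CPM in D419N, 25.6 ± 10.6 CPM in D419G, and 34.3 ± 10.8 CPM in N421K (SD, n = 9 libraries each). Its log2 fold change over STAT6 WT was 1.93 in D419N (SE 0.195, adjusted p = 2.57e-12), 2.37 in D419G (SE 0.185, adjusted p = 2.79e-18), and 2.86 in N421K (SE 0.147, adjusted p = 2.78e-30). The lines differed in a joint test (adjusted p = 0.000122). N421K exceeded D419N by 0.93 (SE 0.163, adjusted p = 4e-05), whereas its neighbors in the order could not be told apart, D419G against D419N (-0.44 for D419N, SE 0.19, adjusted p = 0.4) and N421K against D419G (0.49, SE 0.156, adjusted p = 0.109). Without replicate 1 of all lines, the difference between N421K and D419N was 0.88 and did not pass (adjusted p = 0.0591).

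Single libraries spread widely, and the order of the lines was not the same at each time point. At 2 h, PARP14 was at 9.43, 18.3, and 25.2 CPM in D419N, at 26.2, 26.7, and 29.3 CPM in D419G, and at 24.2, 35.4, and 36.8 CPM in N421K. At 4 h, it was at 19.8, 21.9, and 23.6 CPM in D419N, at 10.5, 34.5, and 45.6 CPM in D419G, and at 41.7, 41.9, and 42.9 CPM in N421K. At 8 h, it was at 11.1, 18.4, and 29.9 CPM in D419N, at 15.0, 17.2, and 25.4 CPM in D419G, and at 9.48, 37.8, and 38.3 CPM in N421K. At 2 and 4 h, the medians rose from D419N through D419G to N421K, while at 8 h D419N (median 18.4 CPM) stood level with D419G (median 17.2 CPM). The lowest value of D419G at 4 h and those of D419N and N421K at 8 h came from libraries with 2 PARP14 UMIs each, among the shallowest of all.

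PARP9 followed PARP14 in the order of its lines, with a log2 fold change of 1.27 in D419N (SE 0.234, adjusted p = 0.000111), 1.52 in D419G (SE 0.229, adjusted p = 5.68e-07), and 2.08 in N421K (SE 0.179, adjusted p = 5.74e-17). The lines differed in the joint test (adjusted p = 0.0317), and N421K exceeded D419N by 0.81 (SE 0.213, adjusted p = 0.022), a call that was lost without replicate 1 (adjusted p = 0.377) or replicate 2 (adjusted p = 0.122), by limma-voom (adjusted p = 0.0721), and with culture as a random effect (adjusted p = 0.0661). DTX3L differed from STAT6 WT by 0.85 in D419N (SE 0.204, adjusted p = 0.00569), 1.49 in D419G (SE 0.189, adjusted p = 4.27e-09), and 1.40 in N421K (SE 0.164, adjusted p = 5.45e-11), with no call in the joint test (adjusted p = 0.155). PARP12 was called in N421K only (0.33, SE 0.0921, adjusted p = 0.00819), at 0.27 in D419G and 0.20 in D419N, and no difference among the lines was called (adjusted p = 0.849). In all, 3 of 9 members were called in D419G (5.38% of all genes), 3 in D419N (2.75%), and 4 in N421K (13.7%), all higher than in STAT6 WT (higher genes 3.16%, 1.49%, and 6.76%). DESeq2 also called PARP1 lower in D419G (-0.11, adjusted p = 0.0278). In the joint test among the lines, 2 of 9 members were called (2.39% of all genes), PARP14 and PARP9. Both also differed between N421K and D419N (1.88% of all genes). Without replicate 1 or without replicate 3, 0 members were called among the lines by edgeR, and without replicate 2 there was 1. The comparisons of D419G, D419N, and N421K with STAT6 WT share the STAT6 WT libraries. Without replicate 1, PARP9 in D419G (adjusted p = 0.0784), DTX3L in D419N (adjusted p = 0.0575), and PARP12 in N421K (adjusted p = 0.131) were no longer called, nor was DTX3L in D419N without replicate 2 (adjusted p = 0.103).

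The genes around PARP14 were examined for changes beyond the 3 members. Of 37 genes annotated with a start within 1 Mb, 13 were tested, and the 10 that are no members had log2 fold changes from -0.13 to 0.23 (median 0.07). Of these 10, edgeR called 2 higher and 0 lower, against the 13.4% of all genes called across time points. DESeq2, which gave a p for 27 such neighbors, and limma-voom called 0 lower too. At an unadjusted p under 0.05, 0 were lower by edgeR and by limma-voom, and 1 was lower by DESeq2. The 2 genes that edgeR called were FAM162A (0.23, SE 0.039, adjusted p = 4.03e-06), 296.7 kb before the start of PARP14, and GOLGB1 (0.23, SE 0.0716, adjusted p = 0.0164), 930.9 kb before it. The nearest tested genes on either side, KPNA1 (0.07, SE 0.0563) and HSPBAP1 (-0.11, SE 0.141), were not called (adjusted p = 0.501 and 0.696). MIX23, next to FAM162A, was not called either (0.16, SE 0.0698, adjusted p = 0.127). PARP15 did not pass the filter on low counts, so that the gene between DTX3L and PARP14 was not tested.

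**Figure D5:**
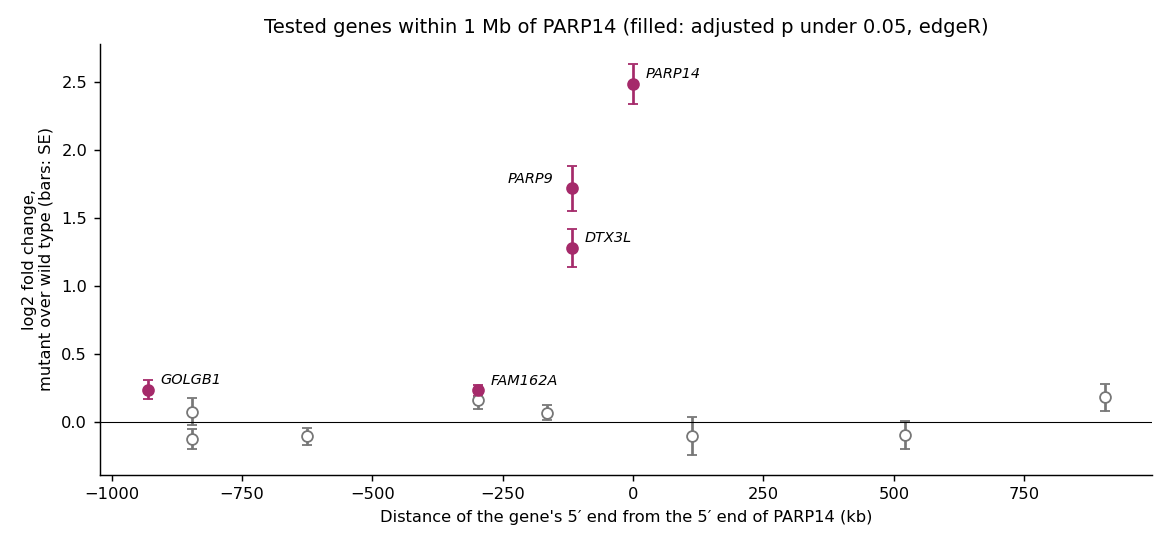
Log2 fold change of STAT6 MUT over STAT6 WT with its SE (edgeR, 54 libraries) against the distance of each gene's 5′ end from that of PARP14 in kb, for the 13 tested genes within 1 Mb. PARP14, PARP9, and DTX3L lie between 1.28 and 2.49, and the other 10 genes lie between -0.13 and 0.23 (filled symbols mark an adjusted p under 0.05).

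Genes that work with ADP-ribose were described through lists written by hand. Beside each count stands the share of all genes called across time points, 13.4% (6.74% higher, 6.62% lower). Of the 8 remaining PARP family genes, 6 were tested and 1 was called, ZC3HAV1, which binds viral RNA. Over 27 libraries each, ZC3HAV1 had a mean of 133 ± 28.4 CPM (SD) in STAT6 MUT against 98.5 ± 15.5 CPM in STAT6 WT, with a log2 fold change of 0.40 (SE 0.058, adjusted p = 7.96e-08). It differed by 0.35 (SE 0.0857), 0.69 (SE 0.092), and 0.12 (SE 0.0995) at 2, 4, and 8 h, and this difference varied over time in the joint test (adjusted p = 0.0302). The RefSeq window of ZC3HAV1 held an N4 and a GAS palindrome and no ISRE core. An N4 palindrome also lay in the window of a gene of this list that was not called. A GAS palindrome lay in a window of PARP15, which was not tested. Of 7 genes that remove ADP-ribose, 3 were tested and 1 was called, OARD1 (0.20, SE 0.0662, adjusted p = 0.034), a hydrolase of single ADP-ribose units. Of 8 readers and partners of ADP-ribose signaling in DNA repair, 7 were tested and 0 were called by edgeR, DESeq2, or limma-voom. In edgeR, 3 had an unadjusted p under 0.05, a threshold that many genes pass. The largest of these 3 p-values ranked 2166 among the 9261 genes tested. Of the 4 other Deltex ligases, 2 were tested and 1 was called, DTX1, which was lower in STAT6 MUT (-0.15, SE 0.0465, adjusted p = 0.0155).

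STAT6, the transduced gene, had a mean of 146 ± 26.4 CPM (SD) over the 27 STAT6 MUT libraries against 162 ± 21.1 CPM over those of STAT6 WT, which is a log2 fold change of -0.15 (SE 0.0438, adjusted p = 0.00982). Whether the transduced STAT6 enters this count is not known, so that it does not check the genotype labels.

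Over the 54 libraries, the genes whose log2 CPM was most like that of PARP14 were IFI27 (Pearson r = 0.84), AFF2 (0.82), MX1 (0.82), ZNF286A (0.81), and IRF7 (0.81), among 9260 genes compared. IFI27, MX1, and IRF7 are known as genes induced by interferon. DTX3L (r = 0.63) ranked 25 and PARP9 (r = 0.61) ranked 33 in this order, ahead of PARP12 (r = 0.30, rank 558), and PARP1, PARP2, PARP4, and PARP8 had r between -0.12 and -0.02. The 54 libraries share the difference between genotypes, which enters these values. After the mean of each line and time point was taken away, PARP9 had r = 0.03 and DTX3L r = -0.16 with PARP14. The 5 highest were then EML4 (0.65), COQ3 (0.64), ENSG00000279057 (0.64), UVRAG (0.63), and TMEM223 (0.62), in counts that are sparse and share the same shallow libraries.

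Within a genotype, no relation of the 3 genes from library to library passed a test. After the mean of line and time point was taken away, Pearson's r lay between -0.36 and 0.30 in 6 relations (3 pairs of genes in 27 libraries of each genotype), and Spearman's rho between -0.40 and 0.31. The smallest p was that of PARP14 and DTX3L in STAT6 WT (r = -0.36, permutation p = 0.058, rho = -0.40, permutation p = 0.042, r = -0.33 without the 2 libraries farthest from the median), and no relation passed adjustment over the 6 (lowest adjusted p 0.32). Without the 2 libraries farthest from the median, r of PARP9 and DTX3L went from 0.0079 to 0.41 in STAT6 MUT and from 0.30 to 0.11 in STAT6 WT, so that these values rest on 2 libraries. The median number of UMIs per library was 5 to 6 for these genes in STAT6 WT and 14 to 21 in STAT6 MUT.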

How the data were processed

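UMI counts of 54 prime-seq libraries were analysed. The authors sequenced them on a HiSeq system, ran the Drop-seq pipeline, and deposited counts per gene and well that were neither normalized nor pooled. The submitters' processing notes name hg38. The aligner, the annotation release, and whether strand was used in counting are not given here, as no source names them. Of 31835 identifiers, 30959 matched a symbol. Groups came from the labels. Totals were 161518 to 2978715 UMIs per library, and none of 135 replicate pairs agreed within sampling noise (chi-square divided by its degrees of freedom from 1.07 to 3.98).

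Counts were tested with edgeR 4.0.16 (R 4.3.3; quasi-likelihood, TMM, filterByExpr, Benjamini-Hochberg over all genes tested, adjusted p under 0.05) in models of time point and genotype, of the 6 groups of genotype and time point, and of time point and line. limma 3.58.1 and DESeq2 1.42.0, the tool the study used, were alternatives. Log2 CPM used a prior count of 2, permutation tests were two-sided (Python 3.11.15, NumPy 2.4.6, SciPy 1.17.1), and plots used matplotlib 3.10.9. Named genes were the members, called genes of the hand-written lists, neighbors on the chromosome between CSTA and HSPBAP1, the 5 genes most like PARP14, and STAT6. A further gene named by that rule is not reported here. GOLGB1, outside that rule, was named after its values were seen. The p-values measure the spread between these libraries, which may be technical. Members and lists were chosen with earlier results of these data known. On simulated counts, 189 of 189 changed genes among 9172 tested were recovered across time points (11 false calls), 190 of 192 among 9348 at 4 h (8 false calls), 197 of 197 among 9441 for N421K (14 false calls), and 183 of 195 among 9380 for the difference between time points (9 false calls), with absolute log2 fold changes of 1 to 1.5. The simulated counts came from the kind of model that edgeR fits, with no effect of culture. Recovery of smaller differences, such as those of PARP12 and PARP4, was not tested. Alternatives changed the scaling, filter, tool, covariates, and libraries. The main fits did not pair samples by replicate number, as given in the closing part. Intervals that counts of 0 allow (3 UMIs) cover counting error only.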

Additional observations from a re-analysis of the deposited data

Results flagged for a closer look

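Among the 60 groups of 9 libraries (10 members, 2 genotypes, 3 time points), 4 held a library whose gap to the nearest of the others was above Dixon's 95% critical value of 0.493 of the range, and by chance about 1 in 20 groups does. PARP9 was at 15.9 CPM in WT replicate 2 at 8 h (6 UMIs, next library 6.53 CPM). PARP12 was at 94.2 CPM in D419G replicate 3 at 4 h (18 UMIs of 175878, next 68.2 CPM), one of the shallowest libraries. PARP1 was at 771 CPM in WT replicate 8 at 4 h (next 713 CPM). PARP8 was at 3.25 CPM in D419G replicate 2 at 2 h, where 1 UMI was counted (next 13.0 CPM). The part of depth in these values was not tested.

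The difference from STAT6 WT varied among the 3 mutant lines for PARP14 (edgeR, adjusted p = 0.000122, 9 libraries per line), highest in N421K and lowest in D419N, and for PARP9 (edgeR, adjusted p = 0.0317) in the same order. Without replicate 1 or without replicate 3, neither gene was called among the lines. The change of PARP4 from 2 to 8 h differed between STAT6 MUT and STAT6 WT (edgeR, adjusted p = 0.049), a call lost in 19 of 22 alternatives. At 8 h, 6 of 9 STAT6 MUT libraries lay below every STAT6 WT library for PARP4.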

How the results depend on the processing

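Of 1651 refitted log2 fold changes of members (79 values in up to 25 settings each), 1528 kept direction and side of the threshold, 79 lost a call, 2 gained one (PARP12 at 4 h without replicate 8 and PARP1 in D419G by DESeq2), and 42 changed sign. PARP14 against STAT6 WT kept its direction and its call in each alternative that tested it across time points, at each time point, and in each line (1.78 to 3.03), and it did not pass the filter with 2 h or 4 h fitted alone. No member fold change that was called changed sign. Low counts limit PARP10 and PARP11, and PARP14, PARP9, and DTX3L in STAT6 WT. Alternatives for the steps between 2 time points and for N421K against D419N were chosen after seeing the data.

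Sign changes were those of values near 0 that were not called. Leaving out each replicate in turn gave, across time points, -0.0141 to 0.00357 for PARP1, -0.0291 to 0.0911 for PARP2, and -0.0167 to 0.0809 for PARP8. At 2 h it gave -0.128 to 0.102 for PARP12, -0.00172 to 0.0357 for PARP1, -0.0697 to 0.063 for PARP8, and -0.428 to 0.0936 for PARP11. It gave -0.0859 to 0.376 for PARP11 at 4 h and -0.00227 to 0.0506 for PARP1 at 8 h. In D419G it gave -0.0373 to 0.206 for PARP2 and -0.177 to 0.0041 for PARP4, in D419N -0.0356 to 0.241 for PARP2, -0.101 to 0.0449 for PARP4, and -0.169 to 0.00871 for PARP11, and in N421K -0.137 to 0.0516 for PARP4 and -0.019 to 0.0908 for PARP11. Without the D419G line, PARP1 was at 0.0418 across time points. Without the D419N line, PARP12 was at 0.0318 and PARP1 at -0.0383 at 2 h, and PARP2 at -0.00476 at 8 h. Without the N421K line, PARP8 was at -0.15 across time points and -0.123 at 2 h, PARP12 at 0.00171 at 2 h, PARP11 at -0.00461 at 4 h, and PARP1 at -0.0189 at 8 h. PARP12 at 2 h was at 0.0235 with culture as a random effect, 0.0239 by limma-voom, and 0.000288 with the time point fitted alone. By total counts only, PARP1 was at -0.0098 and PARP8 at -0.00633 at 2 h. PARP1 was at -0.0028 at 2 h without the 8 shallow libraries. With plate row as a term, PARP8 was at -0.0167 at 2 h and PARP4 at 0.00668 in D419N. The correlation of PARP9 and DTX3L in STAT6 MUT turned to -0.0742 with a prior count of 0.5.

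Counts of called genes moved by over 1.5 times in these cases. Without the N421K line, they were 586 across time points, 310 at 2 h, 139 at 4 h, 119 at 8 h, and 43 for the difference between time points, and 1 member was called at 2 h. With the time point fitted alone, 127 genes were called at 8 h, and 0 members by edgeR at 2 h, where the filter removed PARP14, PARP9, and DTX3L. Leaving out each replicate in turn gave 813 to 1195 genes across time points (lowest without replicate 3), 402 to 741 at 2 h (replicates 1 and 3), 233 to 402 at 4 h (replicates 1 and 2), 82 to 393 at 8 h (replicates 1, 2, 3, 6, and 8), 45 to 95 for the difference between time points (replicate 3), 216 to 527 in D419G (replicates 1, 2, and 3), 139 to 258 in D419N (replicates 1 and 2), 727 to 1345 in N421K (replicates 1 and 3), and 51 to 240 among the lines (replicates 1, 2, and 3), with the replicates that moved the count in parentheses. Members called then numbered 0 to 2 among the lines and 3 to 5 for change over time in STAT6 MUT. The cause was not tested. Leaving out replicates 1, 2, or 3 removes 4 libraries per time point, and any other number 1.

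Whether replicate numbers pair the samples was not tested, and the main fits did not pair them. The deviations of same-numbered libraries of different lines at a time point had r over 0.1 in 7 of 54 pairs (median 0.00213), against 23 of 270 pairs of different numbers. The replicate block adds a term for each replicate number. Under it, STAT6 WT libraries whose number no mutant line has add little to the comparison of genotypes. The part of this in the calls lost under the block was not tested. With the replicate block, 607 genes were called across time points, 264 at 4 h, 161 at 8 h, 318 in D419G, and 146 in D419N, and 1 member each at 2 h and in D419N, and PARP1 was at 0.00996 across time points and PARP11 at -0.0536 in N421K. Under it PARP12 across time points (adjusted p = 0.111), PARP9 and DTX3L at 2 h (0.166 and 0.209), PARP12 at 8 h (0.0703), PARP9 and DTX3L in D419N (0.101 and 0.0794), and PARP12 in N421K (0.0709) were not called by edgeR.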
